A study of Ginkgo biloba with 7 samples.

Results

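miR156 and miR172 are the paired small RNA families that time the passage from juvenile to adult growth and to reproduction in flowering plants. In Arabidopsis, miR156 holds down SQUAMOSA PROMOTER BINDING PROTEIN-LIKE (SPL) transcription factors and falls as the plant ages, whereas miR172 rises and holds down APETALA2-like transcription factors. miR157 is a close relative of miR156, miR529 is known to pair with SPL transcripts at a site that overlaps the miR156 site, and miR535 resembles miR156 in sequence. AP2-like genes are also known for roles in ovules and seeds. Here both sides were followed in ovules of Ginkgo biloba, a gymnosperm. The miR156 side comprised every name numbered miR156, miR157, miR529 or miR535, and the miR172 side every name numbered miR172.

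A target gene was a member when the deposited list paired it with at least 1 name of these numbers and with no miRNA of another number. This gave 61 of the 902 listed target genes, 22 on the miR156 side and 39 on the miR172 side, and no gene was listed for both sides. Another 14 genes were paired with these numbers and with another miRNA, 2 for the miR156 side and 12 for the miR172 side, and were not members. For 2 of the 12, Gb_13547 and Gb_24470, the other miRNA was only novel_32 or novel_40, which carry no family number, so leaving them out is a reading of the rule. The small RNA table held 29 names of these numbers among its 279, 16 on the miR156 side and 13 on the miR172 side. Each name carries the prefix of the plant whose miRNA it was matched to, such as ath for Arabidopsis thaliana, so the names are not Ginkgo loci. The mature sequences and the target sites are not printed, because no file used here holds them.

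The PD libraries came from mature ovules while they exuded the pollination drop, and the PN libraries from pollinated ovules 1 day after pollination, all from several trees of the cultivar Fozhi grown outdoors. The labels name 2 RNA-seq libraries of each stage (PD1, PD2, PN1 and PN2) and 1 small RNA library of each stage. The gene table heads 2 columns PD2 and none PN2, so 1 of these columns may be PN2. Neither could be matched to its sample by name, and both were left out, which leaves PD1 and PN1. The target list belongs to a sample that mixed ovules of both stages. Pollination and the passage of time cannot be told apart, since no unpollinated ovules of the later stage were among the samples. With 1 usable library per stage and assay, values are given without a replicate error and without a test between stages. Intervals on reads are exact 95% intervals that cover counting error only. The files give gene IDs without names, so whether a member encodes an SPL or AP2-like protein is not known from the files, and marker genes of the ovule or of pollen could not be checked. In bulk tissue, fewer cells of a type and less RNA per cell cannot be told apart.

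Both families were rare among the miRNA reads, and miR172 was the more abundant side in each library. The miR156 side had 63 of 774387 reads in PD and 91 of 1129198 in PN. As TPM, the count scaled to 1000000 reads counted to all names of the same library, that equals 81.4 (interval 62.5 to 104) in PD and 80.6 (64.9 to 98.9) in PN. Its ratio PN over PD was 0.991 (0.711 to 1.39), so a difference between the libraries was not detectable at this depth. The miR172 side had 208 reads (269 TPM, 233 to 308) in PD and 191 (169 TPM, 146 to 195) in PN. Its ratio was 0.630 (0.515 to 0.770), a share 1.59-fold lower in PN, and the intervals of both libraries do not overlap. How many other miRNA families differed as much between the libraries was not determined, so this difference cannot be called particular to miR172.

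Within each library, the balance between the sides was counted directly, which does not depend on library size. The miR156 side made up 23.2% (18.4 to 28.7) of the reads of both families in PD and 32.3% (26.8 to 38.1) in PN. In other terms there were 3.3 miR172 reads for each read of the miR156 side in PD and 2.1 in PN. The odds of a miR156-side read were 1.57 times as high in PN (1.06 to 2.34). With names of identical counts taken once, the odds ratio was 1.63 (1.06 to 2.52). These intervals compare the 2 libraries, not the 2 stages.

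On the miR156 side, the name with most reads and the remaining names pointed in different directions. ath-miR156a-5p had 25 reads in PD and 55 in PN (32.3 and 48.7 TPM), which was 39.7% of the reads of its side in PD and 60.4% in PN. Its ratio was 1.51 with an interval of 0.924 to 2.53 that includes equality. The other 15 names together had 38 and 36 reads, a ratio of 0.650 (0.400 to 1.05) that also includes equality. Neither direction exceeded counting error by itself.

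The next names of the miR156 side came in pairs with the same counts. cca-miR156b and stu-miR156f-5p both had 6 reads in PD and 8 in PN, and hbr-miR156 and ath-miR157a-5p, the only miR157 name, both had 6 and 5. Such pairs may hold the same reads under both names, since the rule by which reads went to names is not stated. smo-miR156d, named after the lycophyte Selaginella, had 7 and 3 reads (ratio 0.294, 0.0490 to 1.29). ppt-miR529e, named after the moss Physcomitrium and the only miR529 name, had 1 and 3 reads. The 2 miR535 names, mdm-miR535b and ppt-miR535a, had 1 read each in PD and 0 in PN.

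Of the rest of that side, mtr-miR156g-5p had 2 reads in PD and 0 in PN, and the other names had 1 read each over both libraries. Of these, gma-miR156p and vvi-miR156e had it in PD, and ahy-miR156a, ath-miR156g, ghr-miR156c and osa-miR156k had it in PN. For a count of 0 a limit of 3 reads was used, which is one-sided and lower than the upper end of the two-sided intervals given elsewhere. It amounts to 3.87 TPM in PD and 2.66 TPM in PN, so presence in a single library says nothing for these names.

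The miR172 side rested on a single name. ath-miR172a had 174 reads in PD and 179 in PN (225 and 159 TPM), 83.7% and 93.7% of the reads of its side. Its ratio was 0.705 (0.569 to 0.874). ath-miR172c had 13 and 6 reads, a ratio of 0.317 (0.0987 to 0.893). Both intervals exclude equality, but the share of all names for which this holds was not determined. ath-miR172c also had fewer reads than the limit for comparing single names given below. Without ath-miR172a the other 12 names had 34 and 12 reads, a ratio of 0.242 (0.114 to 0.479). Several of these names have identical counts and may hold the same reads, so that interval may be too narrow.

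The remaining miR172 names were all under 6 reads in total. stu-miR172c-3p had 3 reads in PD and 2 in PN, aly-miR172e-3p and ath-miR172e-3p both had 3 and 1, and ptc-miR172i had 1 and 2. sbi-miR172b and tcc-miR172d had 3 reads each in PD and 0 in PN. gma-miR172d, lus-miR172j, mtr-miR172a, osa-miR172c and sbi-miR172f had 1 read each, all in PD. The PD library held reads of all 13 miR172 names and the PN library of 6. The 7 names in PD alone had 11 reads together, and names with identical counts may hold the same reads. Presence in a single library therefore says nothing for any of these names, and the same count over all names is not given.

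Only ath-miR156a-5p and ath-miR172a reached the 50 reads at which a name was compared, and neither was at least 2-fold different with an interval excluding equality. Among all 127 names with 50 reads, 8.66% were higher and 7.09% lower in PN by that rule. Of the joint reads of these 2 dominant names, ath-miR156a-5p made up 12.6% (8.30 to 18.0) in PD and 23.5% (18.2 to 29.5) in PN. The odds ratio was 2.14 (1.24 to 3.75), and its interval overlaps that of all names, 1.57 (1.06 to 2.34), which include these 2. Both names were picked by their reads in the same libraries.

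**Figure D1:**
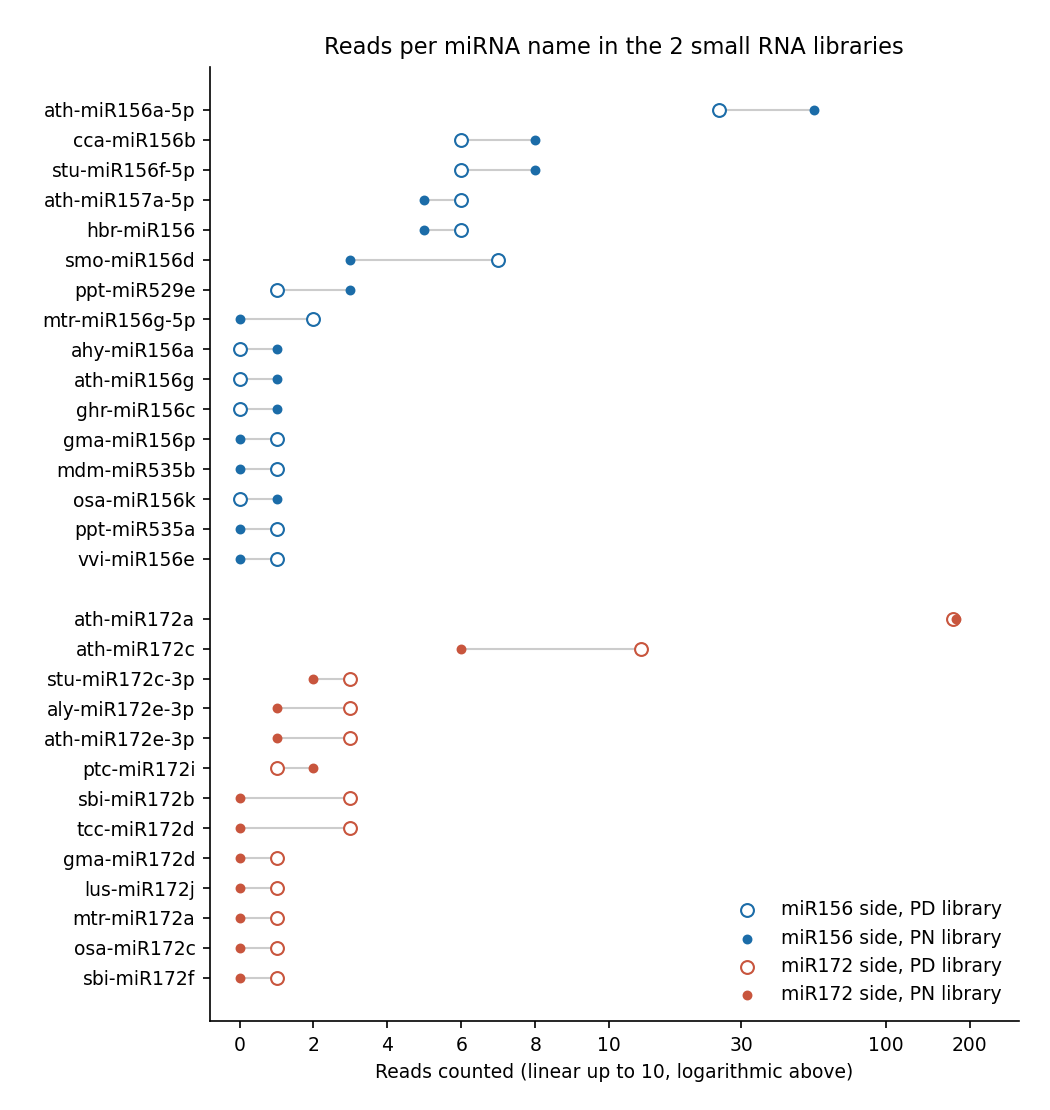
Reads counted for each of the 29 names in the PD (open circles) and PN (filled circles) small RNA libraries, with a horizontal axis that is linear up to 10 reads and logarithmic above. ath-miR172a stands apart at 174 and 179 reads and ath-miR156a-5p at 25 and 55, while every other name has at most 13 reads in a library.

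On the miR172 side, the names that held most of the reads were not the names that held most of the target genes. ath-miR172a was paired with 1 member gene, Gb_30123, and ath-miR172c with none. Of the 39 members of the miR172 side, 38 were listed only for names with fewer than 10 reads over both libraries. All 11 names with so few reads, including names without a member, held 6.77% of the reads of the side. aly-miR172e-3p, with 4 reads in all, was paired with 16 members, and ptc-miR172i, with 3 reads in all, with 8. lus-miR172j had 1 read and 5 members.

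The miR156 side was less divided in this way. ath-miR156a-5p was paired with 2 members, Gb_14425 and Gb_38404. Of the 22 members, 12 were listed for a name with 10 or more reads, and 10 only for names with fewer. All names with fewer, including names without a member, held 9.09% of the reads of the side. hbr-miR156 had the most members of any name on this side, at 4, followed by ppt-miR529e with 3. The target table gives no measure of evidence per pair, so no pair could be weighted.

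**Figure D2:**
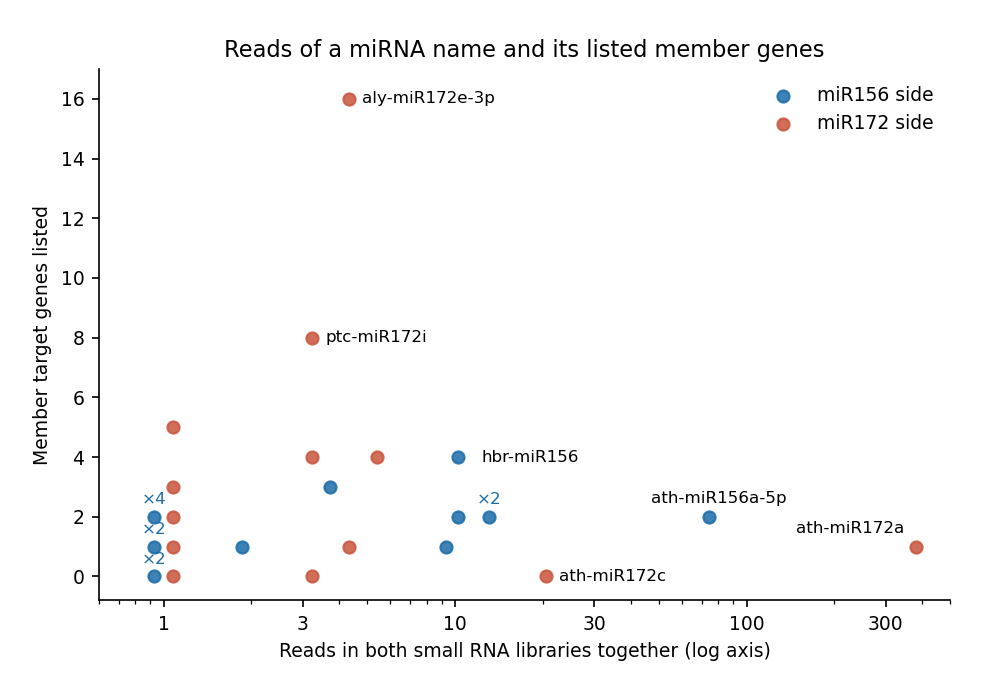
Reads of each name summed over both small RNA libraries (log axis) against the number of member genes paired with it, with both sides drawn slightly apart and a multiplication sign giving the number of names where several coincide. aly-miR172e-3p has 16 members on 4 reads, whereas ath-miR172a has 1 member on 353 reads.

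Most members were listed for 1 name only, 19 of 22 on the miR156 side and 33 of 39 on the miR172 side. The 2 members listed for several numbers of the miR156 side were both at 0 FPKM (fragment counts corrected for the length of the gene and the size of the library) in both libraries. Gb_02576 was paired with names of miR156, miR157, miR529 and miR535, and Gb_26599 with names of miR156 and miR535. Gb_10691 and Gb_22795, each listed for 1 miR156 name, were at 0 in both libraries as well. On the miR172 side, Gb_12395, Gb_14168 and Gb_34750 were at 0 in both. In all, 4 of 22 members of the miR156 side (18.2%) and 3 of 39 of the miR172 side (7.69%) were listed at 0 at both stages, against 5.80% of the 827 listed targets of other miRNAs alone and 33.8% of all 43456 genes.

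Levels were then compared for genes with a mean of at least 1 FPKM over the PD and PN libraries. This kept 17 of 22 members of the miR156 side and 35 of 39 of the miR172 side, and 21308 of all genes. Besides the genes at 0, Gb_41486 (0.606 FPKM in PD and listed at 0 in PN) and Gb_37159 (1.21 and 0.177 FPKM) fell below this limit. The compared members were well expressed on both sides, with a median of the mean FPKM of 44.3 on the miR156 side and 44.4 on the miR172 side. The same median was 12.8 over all compared genes and 42.9 over the other listed targets, so this level was that of listed targets in general.

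The range of levels was wide. On the miR156 side the mean FPKM of the compared members ran from 6.72 to 907, and on the miR172 side from 2.02 to 521. The member with the highest level was Gb_06102, listed for vvi-miR156e, at 758 FPKM in PD and 1057 in PN. It held 46.1% of the summed FPKM of its side in PD and 49.4% in PN. Gb_07393, listed for ghr-miR156c, followed at 328 and 365 FPKM. On the miR172 side Gb_06709, listed for aly-miR172e-3p and osa-miR172c, stood at 575 and 467 FPKM. Gb_09565 (221 and 265 FPKM) and Gb_34082 (229 and 200 FPKM) followed, and both were listed for lus-miR172j. These 5 genes differed by less than 2-fold between the libraries, by -0.30 to 0.48 on the log2(FPKM + 1) scale.

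**Figure D3:**
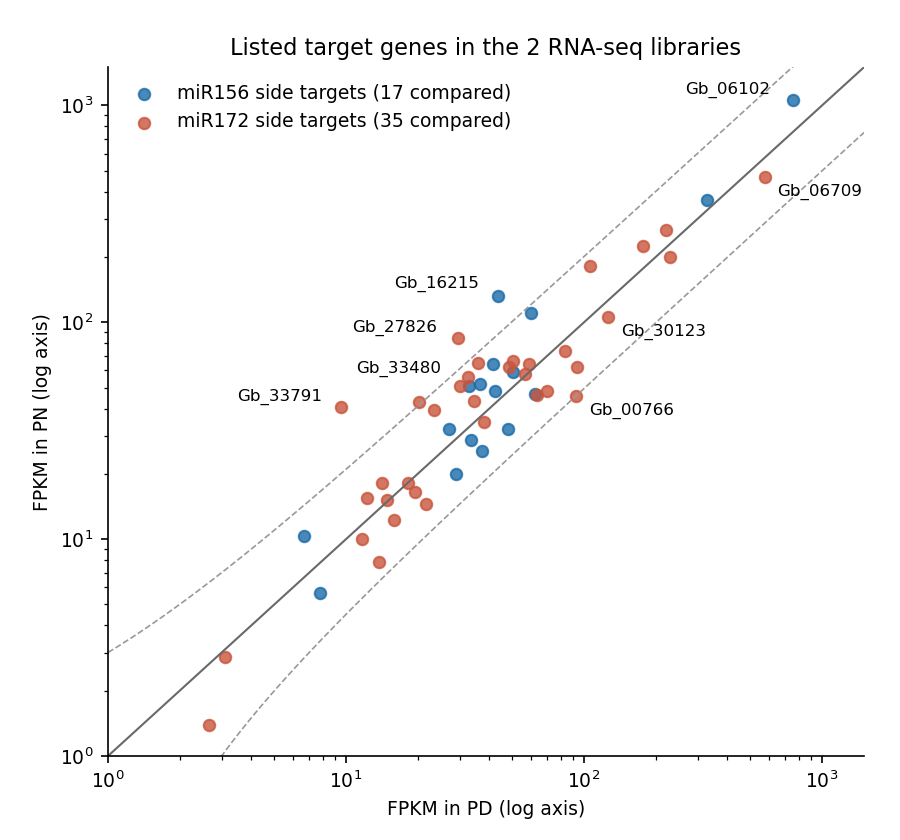
FPKM in the PD library against FPKM in the PN library for the 17 compared members of the miR156 side and the 35 of the miR172 side, both axes logarithmic; the solid line marks equality and the dashed lines a 2-fold difference on the FPKM + 1 scale. Of the 52 genes, 4 lie above the upper dashed line and Gb_00766 lies just below the lower one.

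Between the stages, 47 of the 52 compared members differed by less than 2-fold. Differences are given as PN minus PD on the log2(FPKM + 1) scale, and a gene at 1 or beyond was called higher or lower, which is 2-fold. By this rule 1 of 17 members of the miR156 side was higher and 0 lower, and 3 of 35 members of the miR172 side were higher and 1 lower. Among all compared genes 9.27% were higher and 6.86% lower. Median-of-ratios scaling, which sets the typical gene equal in both libraries, turned this to 7.22% higher and 8.41% lower, with 2 of 35 higher on the miR172 side and the other counts of members as before. With so few genes, neither side can be set apart from that background.

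The higher member of the miR156 side was Gb_16215, listed for ahy-miR156a, at 43.6 FPKM in PD and 133 in PN, a difference of 1.58 (2.99-fold). Its miRNA name had 0 reads in PD and 1 in PN. Gb_33791, listed for ptc-miR172i, had the largest difference of all members, from 9.55 to 40.6 FPKM, or 1.98 (3.94-fold). Gb_27826, listed for aly-miR172e-3p and sbi-miR172b, went from 29.5 to 84.3 FPKM, or 1.48 (2.79-fold).

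Gb_33480, listed for lus-miR172j, went from 20.2 to 43.1 FPKM, a difference of 1.05 (2.08-fold). Under median-of-ratios scaling it was 0.93 and below the limit. The single lower member was Gb_00766, listed for aly-miR172e-3p, at 92.8 FPKM in PD and 45.7 in PN. Its difference of -1.01 (2.01-fold lower) lay at the limit. All 5 genes beyond 2-fold were listed only for names with at most 4 reads in total, as were 39 of the 52 compared members, 9 of 17 on the miR156 side and 30 of 35 on the miR172 side. Gb_27826 and Gb_33480 are named because they complete this count, after their values were seen.

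The genes paired with the dominant names differed little. Gb_14425 had 27.1 FPKM in PD and 32.1 in PN (difference 0.24), and Gb_38404 had 36.6 and 52.0 (0.50). Both are listed for ath-miR156a-5p, whose ratio of 1.51 did not exceed counting error. Gb_30123, listed for ath-miR172a, had 126 FPKM in PD and 105 in PN (-0.26). The ratio of ath-miR172a was 0.705. All 3 differences are within 2-fold and untested, and all 3 genes were named after their values were seen.

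As a whole, the miR156-side members had a median difference of 0.24, from -0.57 to 1.58, and the miR172-side members one of 0.02, from -1.01 to 1.98. The median of all compared genes was itself 0.11 above 0, and that of the other listed targets was 0.07. Relative to all genes, the miR156 side lay 0.13 above and the miR172 side 0.09 below. Of the compared members, 11 of 17 and 16 of 35 lay above the median of all genes. The sign of the miR172 median depended on the scaling: under median-of-ratios scaling, which brought the median of all genes to about 0 (-0.00055), it was -0.10, and the miR156 median was 0.11.

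The difference of the side medians was 0.22 on the log2 scale, with the miR156 side higher in PN. It has no test, because genes of 1 list are not replicates of a stage. On the miR156 side, 7 of 17 members lay within the middle 50% of all genes (-0.33 to 0.54), with 5 above and 5 below. On the miR172 side 19 of 35 did, with 8 above and 8 below.

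Levels and differences also varied within the miR156 side by number. The 14 compared members listed for miR156 had a median difference of 0.36, with 11 above 0 and 3 below. Of all compared genes 56.9% were above 0, and the same 11 to 3 split held around the median of all genes. The 2 compared members of miR529, Gb_13115 (7.80 and 5.64 FPKM) and Gb_13259 (33.6 and 28.6 FPKM), and the compared member of miR157, Gb_10470 (62.0 and 46.8 FPKM), were lower in PN by 0.23 to 0.41 on the log2 scale. Both members listed for miR535 were among the genes at 0, so miR535 had no compared target. With 1 to 2 genes for miR157 and miR529, these are single values of 2 libraries.

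On the miR172 side the lists of single names overlapped in range, and some shared genes. The 15 compared members of aly-miR172e-3p had a median difference of 0.03 (-1.01 to 1.48), with 8 above 0 and 7 below. The 7 of ptc-miR172i had a median of 0.03 (-0.55 to 1.98), and both medians are the value of the same gene, listed for both names. The 4 compared members of lus-miR172j had one of 0.29 (-0.20 to 1.05), and the 4 of sbi-miR172b one of 0.56 (-0.22 to 1.48). The value of 1.48 is that of Gb_27826 in the lists of both aly-miR172e-3p and sbi-miR172b. The 6 members listed for 2 miR172 names had a median of 0.24, with 5 above 0 and 1 below, and the 29 compared members listed for 1 name had -0.09, with 14 above and 15 below. Around the median of all genes, the splits were 4 above and 2 below for the former, and 12 above and 17 below for the latter.

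The miR156-side members summed to 1644 FPKM in PD and 2139 in PN, 1.30 times as much, and to 886 and 1083 without Gb_06102, 1.22 times as much. The miR172-side members summed to 2453 and 2559 FPKM, 1.04 times as much, and to 1878 and 2092 without Gb_06709, 1.11 times as much. Over all genes the summed FPKM in PN was 0.961 times that in PD. Under median-of-ratios scaling the ratios of the sums were 1.19 for the miR156 side and 0.957 for the miR172 side, so the direction of the miR172 sum depended on the scaling.

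Set beside other families chosen by the same rule, the median differences of both sides lay within their range. Targets listed for miR396 alone had a median difference of 0.25 over 78 compared genes, close to the miR156 side. Those of miR166 had -0.18 over 35 genes, below the miR172 side, and those of miR160 and miR167 together had 0.06 over 46 genes, between both sides. The share of compared genes within 2-fold was 94.1% on the miR156 side and 88.6% on the miR172 side, against 84.5% of the other listed targets and 83.9% of all compared genes. The same share was 93.5% for miR160 and miR167, 88.6% for miR166 and 83.3% for miR396. No difference between these lists was tested.

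**Figure D4:**
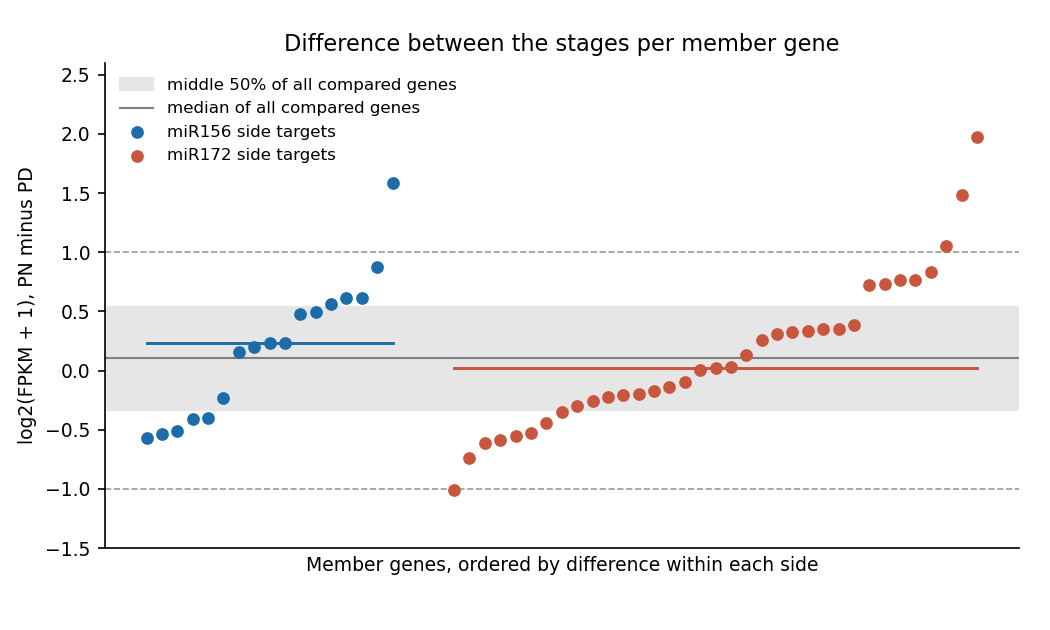
Difference per compared member gene, PN minus PD on the log2(FPKM + 1) scale, ordered within each side; coloured lines are the side medians (0.24 and 0.02), the grey line and band the median and the middle 50% of all compared genes, and dashed lines 2-fold. Both sides spread over and beyond the grey band, and their medians lie on either side of the grey line.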

How the data were processed

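Gene values are FPKM computed by the authors, as the file headers name them. The submitters' processing notes list Bowtie, TopHat, TopHat2 (2.0.12) and Cufflinks (2.1.1) without a role. Genome build, annotation and filters: not given in the sources used here. Headers matched PD1 and PN1 only; 2 further columns share the header PD2 and were not used. The absolute depth is not given. Steps of low FPKM (2379 genes under 0.5 in both libraries) put the depth of PN at 1.18 times that of PD. The small RNA table deposited by the authors holds raw read counts per name and a TPM, which equals the count scaled to 1000000 counted reads to within 4.95e-05. How reads went to names is not stated there. The target table has 1092 rows, of which 8 repeat another, leaving 1084 pairs.

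Differences were log2(FPKM + 1) in PN minus PD for genes whose mean FPKM was 1 or more; the pseudocount understates changes of low genes. Ratios of read shares carry 95% intervals from the exact conditional binomial, shares have Clopper-Pearson intervals, and odds ratios have exact conditional intervals. Reads without molecular identifiers are not independent molecules, and reads repeated under several names make intervals of sums too narrow. A name was called at 50 or more reads, a ratio of at least 2 either way and an interval excluding 1. Calculations used Python 3.11.15, pandas 2.3.3 and scipy 1.17.1. The calls were tested on simulated data for well expressed genes with changes well beyond 2-fold. Ratio intervals were tested there for larger read counts than most names had. Neither test covers genes near the 2-fold limit or names with few reads.

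Members, lists and alternatives were chosen with earlier results of these data known. The rule for named genes took all names with reads, the 3 members of each side with the highest mean FPKM, and the largest increase and decrease beyond 2-fold per side; other members are named to account for those at 0, of small groups or paired with the dominant names, after their values were seen. Gene lists by function and pollen markers need gene names and could not be formed.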

Additional observations from a re-analysis of the deposited data

How the results depend on the processing

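No paired analysis was possible because 2 of the 4 RNA-seq columns share the header PD2, could not be matched to the second library of either stage by name and were left out; for the same reason no leave-one-out values are given. The counts of members beyond 2-fold were within 1.5 times of those reported under every pseudocount, filter and scaling tried; with targets shared with other families included, 2 miR172-side genes in place of 1 were lower in PN. The median of the miR156 side was 0.22 without the FPKM filter and 0.11 under median-of-ratios scaling. The median of the miR172 side was 0.01 without the filter (0.012), 0.03 with a mean FPKM of at least 5 (0.029), 0.01 with shared targets included (0.0105), and -0.10 (-0.097) under median-of-ratios scaling, below 0 because that scaling lowers every PN value. The difference between the side medians was 0.20, 0.21 (0.206) and 0.21 (0.210) without the filter, with the stricter filter and under that scaling. It was 0.22 with pseudocount 0.1, with shared targets (0.225) and with miR156 and miR157 numbers only. The miR156-side read ratio was 1.51 when the name with most reads stood for the side; identical counts taken once (1.07) and median-of-ratios scaling (1.01) left it within its interval. The miR172 ratio ran from 0.644 to 0.705 under these alternatives, and each interval lay below 1. With Gb_13547 and Gb_24470, shared only with names that carry no family number, included, an alternative chosen after seeing the data, the side medians and the counts beyond 2-fold were as reported. Depth limits the miR156 side most, with 154 reads over both libraries.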

Other observations

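The 14 genes paired with these numbers and also with other miRNAs were described apart from the members. Gb_23724 was listed for miR156, miR157, miR529 and miR535, the same 4 numbers as Gb_02576, and also for miR390. It stood at 21.5 FPKM in PD and 24.4 in PN, whereas Gb_02576 was at 0 in both. Gb_02715, listed for miR156, miR396 and miR399, had 448 and 557 FPKM. On the miR172 side, 3 of the 12 shared genes were at 0 in both libraries. Gb_24945, also listed for miR166 and novel_39, had the largest increase of the shared genes, from 95.8 to 324 FPKM (difference 1.75). Gb_40285, also listed for miR390, had the largest decrease, from 23.9 to 9.51 FPKM (-1.25). The other shared genes of that side with values ran from -0.77 to 0.94. All of these genes were named after their values were seen.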
